A study of Mus musculus with 48 samples.

Results

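Tbx21, Eomes, Gata3 and Rora are the genes described here, chosen by name as lineage master transcription factors. All 4 had a row among the 52636 gene IDs of the iNKT RNA table and among the 35661 of the donor T cell RNA table, and 54 of the 54524 ATAC regions lay within 10 kb of them. T cells whose semi-invariant receptor reads lipids held by CD1d are known as iNKT cells, for invariant natural killer T. Thymic maturation gives the effector sublineages iNKT17, iNKT2 and iNKT1. T-bet, the product of Tbx21, drives the interferon-producing type 1 program and with it iNKT1. Eomesodermin, its T-box relative, shares targets with T-bet in cytotoxic and memory CD8 T cells and in NK cells. GATA3 is needed for T cell development at several steps and drives type 2 cytokine genes, and RORα, the product of Rora, is a nuclear receptor that acts in type 17 T cells and group 2 innate lymphoid cells.

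The iNKT cells were sorted from thymi of FVB/N mice into iNKT17, iNKT2 and iNKT1, with 2 bulk RNA and 2 ATAC libraries each. Total thymic iNKT cells from single thymi of 2 FVB/N mice aged 8 weeks were sequenced as single cells. Donor CD8 and CD4 conventional T cells were of FVB/N origin. They were collected from spleen and peripheral lymph nodes on day 7 after transfer into major-mismatched Balb/C recipients developing graft-versus-host disease (GvHD), from mice given iNKT17, iNKT2 or iNKT1 cells or left untreated, and before transfer (day 0), with 3 libraries for each of the 10 groups. The sort gates, the number of mice behind a bulk library and the mouse ages of the bulk samples are not given in the labels, so p-values measure the spread between libraries, which may be partly technical. Levels are CPM, counts relative to the library total after scaling by TMM factors. A gene or region was called changed at a Benjamini-Hochberg adjusted p under 0.05 in the edgeR quasi-likelihood test over all features. The SE follows ±, except for group means, where SD is named.

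Library totals were 26811373 to 33688697 counts for iNKT RNA, 25323879 to 37055182 for donor T cells and 13299586 to 42964216 for ATAC. The summed iNKT17 markers were 5550 to 6680 CPM in iNKT17, 10.3 to 36.0 CPM in iNKT2 and 7.66 to 10.9 CPM in iNKT1, and the summed iNKT1 markers were 770 to 787, 201 to 225 and 5290 to 5560 CPM in the same order of groups. These 2 lists were highest in the sublineage they mark, as was the iNKT2 list, at 2070 to 2370 CPM in iNKT17, 3140 to 3470 CPM in iNKT2 and 227 to 285 CPM in iNKT1, so the iNKT2 markers were also abundant in iNKT17. Cd8b1 averaged 1690 ± 67.8 CPM in CD8 and 16.5 ± 3.08 CPM in CD4 libraries at day 0 (SD, n = 3 each). The iNKT RNA libraries varied widely within groups, with a common biological coefficient of variation of 1.3, against 0.298 for ATAC and 0.25 for the 30 donor T cell libraries.

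The promoters of Tbx21 and Gata3 are shown because ATAC regions covered both start sites, and the one at Tbx21 was called lower in iNKT17 and iNKT2 than in iNKT1 while the one at Gata3 was not called. Each is the 250 bases before the annotated start site in RefSeq on GRCm38.p6, read 5′ to 3′ on the minus strand, at chr11:97115332-97115581 for Tbx21 and chr2:9878601-9878850 for Gata3. Capitals mark bases inside an ATAC region of the deposited table, 162 bases for Tbx21 and 193 bases for Gata3.
Tbx21: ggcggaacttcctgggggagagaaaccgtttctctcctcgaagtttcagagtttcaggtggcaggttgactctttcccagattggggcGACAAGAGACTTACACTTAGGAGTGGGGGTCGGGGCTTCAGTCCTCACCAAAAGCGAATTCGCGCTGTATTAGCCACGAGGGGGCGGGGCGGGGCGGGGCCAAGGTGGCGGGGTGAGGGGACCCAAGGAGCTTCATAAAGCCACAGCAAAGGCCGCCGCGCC
Gata3: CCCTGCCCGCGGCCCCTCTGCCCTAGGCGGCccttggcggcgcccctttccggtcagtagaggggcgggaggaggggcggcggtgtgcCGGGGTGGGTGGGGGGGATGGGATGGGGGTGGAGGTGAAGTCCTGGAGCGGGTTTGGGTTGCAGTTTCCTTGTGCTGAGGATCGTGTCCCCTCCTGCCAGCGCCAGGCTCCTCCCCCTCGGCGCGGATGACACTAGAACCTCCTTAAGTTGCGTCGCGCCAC
The G and C share was 60.8% for Tbx21 and 70.0% for Gata3, and CG pairs numbered 16 and 19, against medians of 52.4% and 6 over 32851 mouse promoters. Each window was searched on both strands for a motif of each factor family, and 0 matches occurred in these windows or in those of Eomes and Rora. The T-box motif searched was AGGTGT, which 11.8% of all promoters hold. For GATA factors the letters AGATAA were used, which 9.99% of all promoters hold. For ROR factors AGGTCA was used, found in 14.0% of all promoters. The windows of Eomes and Rora overlapped no ATAC region.

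Among sorted thymic iNKT cells, Tbx21 RNA was high in both iNKT1 libraries and near 0 in iNKT17. Tbx21 (ENSMUSG00000001444; chr11:97098007-97115331) had 0.0965 and 0.233 CPM in iNKT17, 0.305 and 19.7 CPM in iNKT2, and 307 and 305 CPM in iNKT1. The groups did not overlap, and the iNKT2 libraries stood far apart from each other. The summed iNKT1 markers were 225 CPM in iNKT2 library 1 and 201 CPM in iNKT2 library 2, the library with 19.7 CPM of Tbx21. The log2 fold change of Tbx21 was -10.85 ± 2.22 in iNKT17 against iNKT1 (edgeR adjusted p = 0.105), -4.93 ± 1.68 in iNKT2 against iNKT1 (adjusted p = 0.501) and -5.92 ± 1.87 in iNKT17 against iNKT2 (adjusted p = 0.461). None of these passed the threshold.

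Rora RNA was higher in iNKT17 and iNKT2 than in iNKT1 in every library. Rora (ENSMUSG00000032238; chr9:68653404-69388246) had 105 and 123 CPM in iNKT17, 149 and 113 CPM in iNKT2, and 14.9 and 28.4 CPM in iNKT1. The lowest iNKT17 or iNKT2 library was above the highest iNKT1 library, while iNKT17 and iNKT2 overlapped. The log2 fold change was 2.40 ± 0.54 in iNKT17 against iNKT1 (edgeR adjusted p = 0.0676) and 2.6 ± 0.55 in iNKT2 against iNKT1 (adjusted p = 0.0643), just short of the threshold. Between iNKT17 and iNKT2 it was -0.20 ± 0.52 (adjusted p = 1.0). In bulk samples, fewer cells of a type and less RNA per cell cannot be told apart.

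Gata3 RNA was abundant in all sublineages. Gata3 (ENSMUSG00000015619; chr2:9857078-9887953) had 155 and 239 CPM in iNKT17, 155 and 152 CPM in iNKT2, and 126 and 225 CPM in iNKT1, so iNKT17 and iNKT2 met at 155 CPM and both lay across the iNKT1 range. The log2 difference was 0.17 in iNKT17 against iNKT1 (95% interval -0.61 to 0.95) and -0.20 in iNKT2 against iNKT1 (-0.98 to 0.58), and neither passed the test. Eomes (ENSMUSG00000032446; chr9:118478186-118486132) had no count in iNKT17 and iNKT2 and 2.59 and 0 CPM in iNKT1, where a single library held 79 counts. It fell under the low-count filter and was not tested. Over the summed libraries of a group, a count of 0 allows up to 0.052 CPM in iNKT17 and 0.0535 CPM in iNKT2, by counting error only.

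By edgeR, 0 of the 3 tested members were called in any comparison of sublineages, although Tbx21 and Rora had an unadjusted p under 0.05 in both comparisons with iNKT1, as did Tbx21 between iNKT17 and iNKT2. Of all genes, 2% were called in iNKT17 against iNKT1 (0.986% higher, 1.01% lower). The share was 1.29% for iNKT2 against iNKT1 (0.533% and 0.752%) and 0.711% for iNKT17 against iNKT2 (0.436% and 0.275%). DESeq2, which called 13.9% of all genes in iNKT17 and 8.42% in iNKT2 against iNKT1, called Tbx21 and Rora in both, with adjusted p-values of 6.67e-08 for Tbx21 and 1.35e-05 for Rora in iNKT17 and of 0.0472 and 7.84e-06 in iNKT2. The same analysis called Tbx21 between iNKT17 and iNKT2 (adjusted p = 0.0138), where 10.9% of all genes were called. The Tbx21 log2 fold change in iNKT2 against iNKT1 was -3.96 without iNKT2 library 1 and -9.93 without iNKT2 library 2. Each of these fits kept 1 iNKT2 library and so held no spread between the iNKT2 libraries, which stood far apart. Summed stromal and epithelial markers were 64.6 to 91.2 CPM in iNKT17, 129 to 152 CPM in iNKT2 and 5.53 to 19.2 CPM in iNKT1. Like Rora, they were lowest in iNKT1. Of the 6 genes, 5 and 4 were at 0 in iNKT2 libraries 1 and 2. In iNKT17 and in iNKT1, 3 and 4 were at 0, so few genes carried these sums. Summed B and plasma cell markers were 622 to 675 CPM in iNKT17, 0.0677 to 0.217 CPM in iNKT2 and 0.131 to 0.18 CPM in iNKT1, nearly all from Sdc1, which also marks iNKT17, with Ms4a1 and Jchain at 0 in every library. Summed NK and innate lymphoid cell markers were 2410 to 2550 CPM in iNKT17, 824 to 1130 CPM in iNKT2 and 1350 to 1520 CPM in iNKT1, mostly Il7r, with Ncr1 and Klra8 at 0 in iNKT17. The part of these cell types in the results was not tested.

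**Figure D1:**
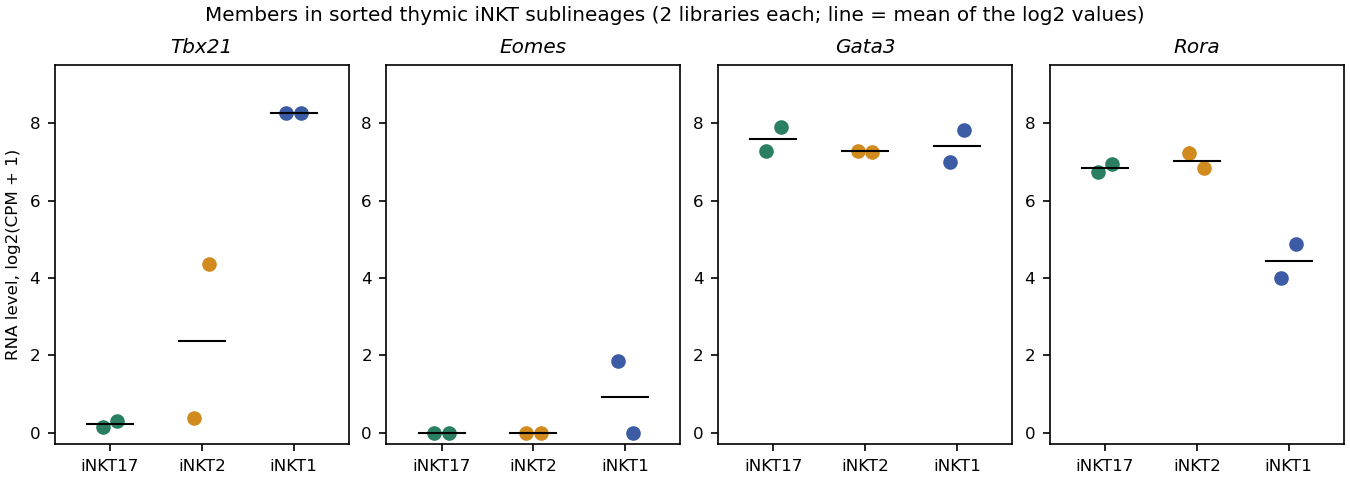
RNA level of each member as log2(CPM + 1) in every library of sorted thymic iNKT17, iNKT2 and iNKT1 cells; points are libraries and lines the mean of 2. Tbx21 is near 0 in iNKT17, split in iNKT2 and at 305 to 307 CPM in iNKT1, Rora is lowest in iNKT1, and Gata3 is at 126 to 239 CPM throughout.

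Genes known to act with or under these factors moved as follows. Most of the iNKT1, iNKT2 and iNKT17 markers summed above are also in the type 1, type 2 and type 17 lists. The counts for these lists therefore partly repeat the marker sums and are not separate evidence. Of 16 tested genes of the type 1 program, 12 were lower and 0 higher in iNKT17 than in iNKT1, and 10 were lower and 0 higher in iNKT2 than in iNKT1. The medians were -10.97 and -9.11 on the log2 scale, against -0.03 and 0.09 over all genes. Among them, Xcl1, a chemokine for cross-presenting dendritic cells, had a log2 fold change of -11.86 ± 0.77 in iNKT17 and -10.74 ± 0.73 in iNKT2 against iNKT1. Il2rb, the shared IL-2 and IL-15 receptor chain, had -3.37 ± 0.24 in iNKT2. In iNKT17 against iNKT1, 5 of 12 tested type 17 genes were higher and 0 lower, including Il23r, the IL-23 receptor (12.32 ± 0.61), and Il1r1, the IL-1 receptor (11.84 ± 0.46). Of 11 tested type 2 genes, 5 were higher and 1 lower in iNKT17, and 4 were higher and 0 lower in iNKT2, each against iNKT1. Icos, a costimulatory receptor, was 3.75 ± 0.25 higher in iNKT17 and 3.55 ± 0.24 higher in iNKT2 on the log2 scale. Of 19 tested partner and antagonist factors, 7 were higher in iNKT17 and 6 in iNKT2 than in iNKT1, and 0 were lower. Runx1, a partner of T-bet and GATA3, and Zbtb16, which encodes the iNKT factor PLZF, were among both sets, with Zbtb16 at 2.99 ± 0.38 in iNKT17 and 3.14 ± 0.38 in iNKT2. Of 19 other T-box, GATA and ROR family genes, only Tbx6 passed the filter, and it was not called.

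Chromatin at Tbx21 was most open in iNKT1. Of its 9 regions, 7 were lower and 0 higher in iNKT17 than in iNKT1, where 37.1% of all regions were called, 23.5% higher and 13.6% lower. In iNKT2 against iNKT1, 6 of the 9 were lower and 0 higher, where 38.6% of all regions were called, 22.3% higher and 16.3% lower. Regions at a gene share that gene and are not independent of each other. The most accessible Tbx21 region, chr11:97112500-97113136, centred 2.51 kb inside the gene, had 3.50 and 1.04 CPM in iNKT17, 19.1 and 21.3 CPM in iNKT2, and 115 and 95.9 CPM in iNKT1. The sublineages did not overlap there. Its log2 fold change was -5.58 ± 0.59 in iNKT17 against iNKT1 (edgeR adjusted p = 0.00109), -2.38 ± 0.50 in iNKT2 against iNKT1 (adjusted p = 0.0149) and -3.20 ± 0.54 in iNKT17 against iNKT2 (adjusted p = 0.0243). The iNKT2 call against iNKT1 ended when any 1 of the 4 libraries was left out (adjusted p = 0.0567 to 0.142), and that between iNKT17 and iNKT2 without either of the iNKT2 libraries (adjusted p = 0.12 and 0.102).

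A second intragenic Tbx21 region, chr11:97109037-97109374, had 0.355 and 0.339 CPM in iNKT17, 0.922 and 1.1 CPM in iNKT2, and 18.7 and 12.6 CPM in iNKT1. Its log2 fold change was -5.48 ± 0.39 in iNKT17 (adjusted p = 5.46e-05) and -3.96 ± 0.35 in iNKT2 (adjusted p = 0.000235) against iNKT1. Both calls held when each library was left out. Over the start site, where the printed promoter lies, the change was smaller. The region chr11:97115240-97115493 had 7.40 and 5.22 CPM in iNKT17, 11 and 9.37 CPM in iNKT2, and 22.1 and 19.3 CPM in iNKT1. Its log2 fold change was -1.72 ± 0.26 in iNKT17 (edgeR adjusted p = 0.001) and -1.02 ± 0.26 in iNKT2 (adjusted p = 0.0135) against iNKT1. Without iNKT1 library 1 or iNKT2 library 2, the iNKT2 call was lost (adjusted p = 0.0756 and 0.069).

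The Eomes locus held 3 regions. The one nearest the start site, chr9:118478485-118479481, had 6.89 and 4.66 CPM in iNKT17, 11.1 and 17 CPM in iNKT2, and 22 and 27.1 CPM in iNKT1. All iNKT1 libraries lay above the others, with a log2 fold change of -2.09 ± 0.31 in iNKT17 against iNKT1 (edgeR adjusted p = 0.000813). In iNKT2 against iNKT1 it was -0.80 ± 0.30 (adjusted p = 0.0581), which passed once same-numbered libraries were blocked (adjusted p = 0.0316). In iNKT17 against iNKT2 it was -1.29 ± 0.30 (adjusted p = 0.032), which was lost without iNKT2 library 2 (adjusted p = 0.178) or iNKT17 library 2 (adjusted p = 0.144). The iNKT2 ATAC libraries thus had counts in this region, while the iNKT2 RNA libraries had no Eomes count. The other 2 Eomes regions, downstream of the gene, were not called in any comparison, and the stronger of them had 16.4 and 14.2 CPM in iNKT17, 17 and 17 CPM in iNKT2, and 14.2 and 13.1 CPM in iNKT1.

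Gata3 chromatin was less open in iNKT17 and iNKT2 than in iNKT1 at part of its regions. Of its 14 regions, 7 were lower and 0 higher in iNKT17 than in iNKT1, and 4 were lower and 0 higher in iNKT2 than in iNKT1. Of all regions, 13.6% were lower and 23.5% higher in iNKT17, and 16.3% were lower and 22.3% higher in iNKT2. With same-numbered libraries blocked, 8 were lower and 0 higher in each comparison. Under the block, 53.4% of all regions were called in iNKT17 (28.7% higher, 24.8% lower) and 53.5% in iNKT2 (27.6% higher, 25.9% lower), each against iNKT1. The region over the start site, chr2:9878361-9878762, had 19.7 and 29.9 CPM in iNKT17, 18.3 and 27.4 CPM in iNKT2, and 23.8 and 30.2 CPM in iNKT1, with overlapping groups and no call. By contrast, the region chr2:9867160-9867366, 11.34 kb inside the gene, had 2.28 and 3.87 CPM in iNKT17, 5.84 and 5.59 CPM in iNKT2, and 14.7 and 19.1 CPM in iNKT1. Its log2 fold change was -2.44 ± 0.32 in iNKT17 (adjusted p = 0.000473) and -1.56 ± 0.31 in iNKT2 (adjusted p = 0.00461) against iNKT1. The most accessible Gata3 region, chr2:9879546-9879888, had 28.1 and 34.7 CPM in iNKT17, 23.9 and 31.6 CPM in iNKT2, and 54.4 and 65.6 CPM in iNKT1. It was called lower in both comparisons with iNKT1, by -0.93 ± 0.22 in iNKT17 and -1.11 ± 0.22 in iNKT2 on the log2 scale, and these calls held when each library was left out.

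Rora was the member whose regions moved in both directions. Of its 28 regions, 13 were higher and 3 lower in iNKT17 than in iNKT1, where 23.5% of all regions were higher and 13.6% lower. In iNKT2 against iNKT1, 12 were higher and 5 lower, where 22.3% of all regions were higher and 16.3% lower. The lower calls at Rora were thus near the share over all regions. A single annotated start site was used for each gene, and other possible start sites of Rora were not examined. No region of the table lay near the Rora site used, and the nearest was centred 279.12 kb inside the 734.8 kb gene. That nearest region, chr9:68932635-68933173, had 1.77 and 1.41 CPM in iNKT17, 5.63 and 6.46 CPM in iNKT2, and 0.706 and 0.0879 CPM in iNKT1. It was highest in iNKT2, with a log2 fold change of 3.79 ± 0.66 against iNKT1 (edgeR adjusted p = 0.00256), while the iNKT17 change of 1.86 ± 0.65 (adjusted p = 0.0495) was lost in 5 of 9 alternatives. Both values depended on the iNKT1 libraries. The iNKT2 change was 6.01 without iNKT1 library 1 and 3.1 without iNKT1 library 2, and the iNKT17 change was 4.09 and 1.13 in the same order. The region chr9:69226482-69227618 had 24.7 and 26.1 CPM in iNKT17, 20.8 and 22.1 CPM in iNKT2, and 1.90 and 1.67 CPM in iNKT1. Every iNKT17 and iNKT2 library lay far above both iNKT1 libraries, with log2 fold changes of 3.82 ± 0.24 (edgeR adjusted p = 4.88e-05) and 3.58 ± 0.24 (adjusted p = 0.000168). At 573.26 kb from the start site, it was the last region before a gap in the table. A boundary at 600 kb was chosen after the values were seen and is therefore not tested. Of the 12 regions before it, 9 were higher and 1 lower in iNKT17, and 10 were higher and 0 lower in iNKT2, each against iNKT1. Of the 16 regions after it, 4 were higher and 2 lower in iNKT17, and 2 were higher and 5 lower in iNKT2. The iNKT17 counts after the boundary were near the shares over all regions given above. In iNKT2, more regions after it were called lower than higher. The strongest Rora region, chr9:69289328-69290361, lay after the boundary and had 71.8 and 63.2 CPM in iNKT17, 54.3 and 61.4 CPM in iNKT2, and 76.7 and 83.5 CPM in iNKT1. It was not called against iNKT1, except in iNKT2 with blocking (adjusted p = 0.0059) and by DESeq2.

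**Figure D2:**
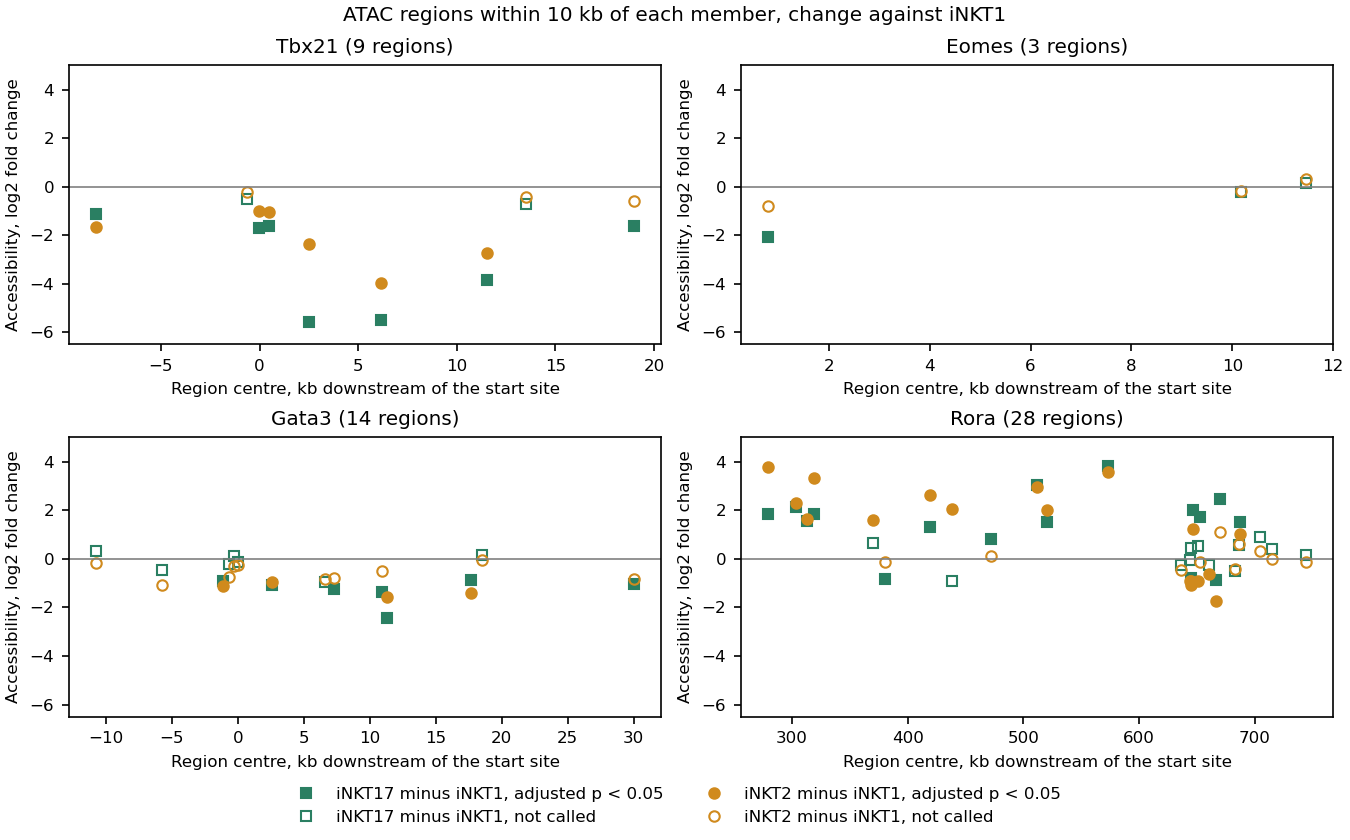
Log2 fold change in accessibility of iNKT17 (squares) and iNKT2 (circles) against iNKT1 for each ATAC region within 10 kb of a member, by the distance of its centre from the start site in kb; filled symbols passed an adjusted p of 0.05. All called regions of Tbx21, Eomes and Gata3 lie below 0, while Rora has 13 called above 0 in iNKT17 and 12 in iNKT2.

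Between iNKT17 and iNKT2 fewer regions of the members were called. Of the 54 regions, 3 were higher and 5 lower in iNKT17, where 8.34% of all regions were called, 5.11% higher and 3.24% lower. With same-numbered libraries blocked, 6 were higher and 12 lower, among them 5 lower regions at Tbx21 and 2 at Gata3, where 18.5% of all regions were called, 10.8% higher and 7.7% lower. The block made calls of the Tbx21 start site region (-0.71 on the log2 scale, adjusted p = 0.0305, against 0.151 without it), of the Gata3 region chr2:9867160-9867366 (-0.92, adjusted p = 0.0352, against 0.133) and of the Rora region chr9:68932635-68933173 (-1.95, adjusted p = 0.0402, against 0.0886). The Rora region chr9:69092205-69092768 had 1.17 and 0.593 CPM in iNKT17, 6.5 and 7.09 CPM in iNKT2, and 1.46 and 1.80 CPM in iNKT1. It was open in iNKT2 above both other sublineages, with a log2 fold change of -2.98 ± 0.43 in iNKT17 against iNKT2 (edgeR adjusted p = 0.00511) and 2.06 ± 0.41 in iNKT2 against iNKT1 (adjusted p = 0.00443). In the other direction, the Rora region centred 652.2 kb from the start site had 7.20 and 7.43 CPM in iNKT17, 1.89 and 2.21 CPM in iNKT2, and 2.36 and 2.02 CPM in iNKT1. Its log2 fold change was 1.84 ± 0.32 in iNKT17 against iNKT2 (adjusted p = 0.0104), and it did not pass without iNKT17 library 2 (adjusted p = 0.0571). Depth behind these values differed, since the ATAC libraries of iNKT2 were the shallowest (13299586 and 17373112 counts).

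In single thymic iNKT cells, the members were measured at low depth. After filters, 139 cells of thymus A and 146 of thymus B remained, with medians of 5291 and 5790 unique molecular identifiers (UMIs) per cell, and 1 barcode was shared between the thymi. Clustering without the members gave an iNKT17-like cluster of 46 cells led by Blk, Pxdc1 and Sdc1, an iNKT2-like cluster of 150 cells led by Izumo1r, Plac8 and Cd4, and an iNKT1-like cluster of 89 cells led by Ccl5, Fcer1g and Gzma. The median depths were 4985, 7151 and 3952 UMIs. No test was made, since cells are not replicates and the thymi form 1 group. Intervals are exact at 95% and cover counting error only.

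A Tbx21 UMI was found in 1 of 46 iNKT17-like, 7 of 150 iNKT2-like and 21 of 89 iNKT1-like cells. The kept cells held 826381 of 1123650 UMIs in thymus A and 895308 of 1178177 in thymus B. The iNKT17-like cluster came nearest to a background share, since sorted bulk iNKT17 had only 0.0965 and 0.233 CPM of Tbx21. The part of free RNA in the low shares was not tested. The summed Tbx21 level was 3.99 CPM (0.101 to 22.2) in iNKT17-like, 7.23 CPM (3.12 to 14.3) in iNKT2-like and 65.7 CPM (42.1 to 97.8) in iNKT1-like cells. The iNKT1-like interval lay above both others although that cluster was the shallowest. With each cell thinned to 2000 UMIs, Tbx21 was found in 0 of 45, 2 of 146 and 14 of 83 cells in the same order of clusters.

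Rora had 67.8 CPM (39.5 to 109) in iNKT17-like, 35.3 CPM (25.1 to 48.2) in iNKT2-like and 11 CPM (2.99 to 28.1) in iNKT1-like cells. Only the iNKT17-like and iNKT1-like intervals were apart. With each cell thinned to 2000 UMIs, Rora was found in 3 of 45, 9 of 146 and 3 of 83 cells in the same order. The iNKT17-like and iNKT1-like intervals then overlapped, at 6.87 to 97.4 and 3.73 to 52.8 CPM. Unthinned, the iNKT17-like Rora level differed between the thymi, with 23.5 CPM in thymus A from 16 cells and 90.7 CPM in thymus B from 30 cells. Gata3 had 152 CPM (107 to 208), 102 CPM (84.2 to 123) and 82.2 CPM (55.4 to 117) in the same order, so each interval overlapped the next. Gata3 UMIs were found in 24 of 46, 71 of 150 and 22 of 89 cells, and after thinning in 11 of 45, 27 of 146 and 10 of 83. Eomes gave 1 UMI in 1 of 285 cells, an iNKT1-like cell of thymus A. In thymus B, 0 of 146 cells had an Eomes UMI. The exact interval allows a share of cells with a UMI of up to 2.49% by counting error. It sets no limit on cells expressing the gene.

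Cells with UMIs of more than 1 member were counted as a description. Tbx21 and Gata3 were found together in 8 of 285 cells, where the product of their shares gives 11.9. Tbx21 and Rora were found together in 2 cells, against 4.88 from the product. Gata3 and Rora were found together in 24 cells, against 19.7. These counts were not tested.

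**Figure D3:**
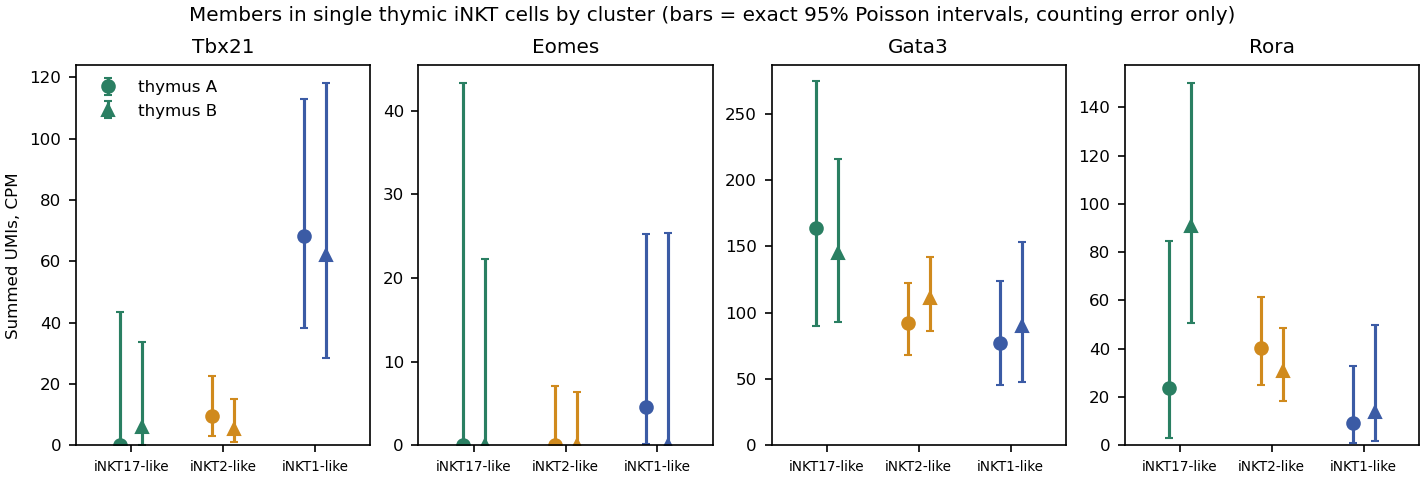
Summed UMI level (CPM) of each member in the iNKT17-like, iNKT2-like and iNKT1-like clusters, for thymus A (circles) and thymus B (triangles), with exact 95% Poisson intervals for counting error. Tbx21 is highest in iNKT1-like cells of both thymi, at 68.2 and 62 CPM, and Eomes is at 0 in all but 1 point.

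In donor T cells, Tbx21 and Rora rose strongly by day 7 of GvHD in CD8 and CD4 cells alike. In CD8 cells, Tbx21 had 526, 520 and 568 CPM in untreated day 7 libraries, against 31.0, 31.8 and 52.4 CPM at day 0, a log2 fold change of 3.79 ± 0.18 (edgeR adjusted p = 2.01e-10). In CD4 cells it had 370, 405 and 461 CPM at day 7 untreated, against 28.1, 26.4 and 30.8 CPM at day 0, a log2 fold change of 3.81 ± 0.18 (adjusted p = 8.38e-09). Day 7 and day 0 were far apart in both cell types, and the difference between the 2 changes was -0.05 (95% interval -0.51 to 0.41).

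Rora had 126, 116 and 134 CPM in untreated day 7 CD8 libraries, against 18.0, 16.8 and 18.0 CPM at day 0 (log2 fold change 2.81 ± 0.11, edgeR adjusted p = 2.59e-11). In CD4 cells it had 132, 156 and 162 CPM at day 7 untreated, against 31.5, 31.3 and 39.3 CPM at day 0 (2.09 ± 0.21, adjusted p = 4.73e-06). The groups did not overlap in either cell type. The rise was 0.70 ± 0.23 larger in CD8 than in CD4 cells on the log2 scale, which did not pass by edgeR (adjusted p = 0.0619) and passed by DESeq2 (adjusted p = 0.0316).

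Gata3 rose less. It had 51.2, 49.0 and 66.5 CPM in untreated day 7 CD8 libraries, against 34.3, 38.0 and 40.1 CPM at day 0 (0.55 ± 0.17 on the log2 scale, edgeR adjusted p = 0.0135). In CD4 cells it had 154, 119 and 239 CPM at day 7 untreated, against 69.4, 75.8 and 96.7 CPM at day 0 (1.03 ± 0.37, adjusted p = 0.0403). Neither pair of groups overlapped, but both calls rested on single libraries. The CD8 call was lost without day 0 library 1 (adjusted p = 0.0519) or untreated library 3 (adjusted p = 0.0698). The CD4 call was lost without day 0 library 1 or 2 or untreated library 1 or 3 (adjusted p = 0.0584 to 0.16), and with no low-count filter (adjusted p = 0.0601).

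Eomes was the member whose change by day 7 differed between the cell types. In CD8 cells it had 34.7, 31.9 and 69.9 CPM at day 7 untreated, against 35.8, 31.6 and 57.1 CPM at day 0, fully overlapping (0.11 ± 0.32 on the log2 scale, 95% interval -0.51 to 0.73, edgeR adjusted p = 0.782). In CD4 cells it had 6.28, 5.73 and 11.1 CPM at day 7 untreated, against 0.682, 2.52 and 2.35 CPM at day 0 (2.02 ± 0.41, adjusted p = 0.00173). The CD8 change minus the CD4 change was -1.94 ± 0.53 (adjusted p = 0.0226). This call was lost without CD8 day 0 library 3, CD8 untreated library 1 or 2, or CD4 untreated library 3 (adjusted p = 0.0612 to 0.0812). Of NK cell markers, Ncr1 averaged 0.186 ± 0.272 CPM in untreated day 7 CD4 libraries and 2.56 ± 0.613 CPM at day 0 (SD, n = 3 each), and Klra8 was at 0 in all day 0 CD4 libraries. The summed list of 4 NK and innate lymphoid cell markers, which also holds Il7r and Kit, was 555 to 714 CPM in untreated day 7 CD4 libraries and 293 to 372 CPM at day 0, most of it from Il7r, the IL-7 receptor chain that T cells also make (640 ± 81.4 and 306 ± 45.1 CPM, SD). Its part in the Eomes result was not tested.

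In all, 3 of 4 members were called higher and 0 lower at day 7 in CD8 cells, where 60.7% of genes were called, 30.9% higher and 29.8% lower. In CD4 cells, 4 of 4 were called higher, where 35.6% of genes were called, 17.4% higher and 18.2% lower. For the interaction, 1 of 4 was called, where 8.78% of all genes were called, 4.49% with a positive and 4.29% with a negative difference. Other cell types' markers also differed by day. Summed B and plasma cell markers were 8.81 to 12 CPM in untreated day 7 CD8 libraries and 167 to 600 CPM at day 0, and 3.40 to 6.15 CPM in untreated day 7 CD4 libraries and 396 to 448 CPM at day 0. Erythroid and platelet markers were at 0.997 to 12.7 CPM in untreated day 7 CD8 libraries and 575 to 762 CPM at day 0, and at 2.95 to 9.25 CPM in untreated day 7 CD4 libraries and 2990 to 8990 CPM at day 0. Myeloid markers were at 295 to 339 CPM and 908 to 2130 CPM in the same CD8 groups and at 217 to 263 CPM and 862 to 1050 CPM in the same CD4 groups. Their part in the day 7 results was not tested.

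Genes of the type 1 program were higher at day 7, as Tbx21 was. Of its 22 genes, 19 were higher and 0 lower at day 7 in CD8 cells, and 19 were higher and 2 lower in CD4 cells, with medians of 2.86 and 2.67 on the log2 scale against -0.05 and -0.08 over all genes. Il12rb2, a chain of the IL-12 receptor, rose by 5.71 ± 0.23 in CD8 and 4.81 ± 0.19 in CD4 cells. Gzmb, which encodes the cytotoxic protease granzyme B, rose by 9.71 ± 0.28 in CD8 cells. Of the type 2 genes, 5 of 11 tested were higher and 4 lower in CD8 cells, and 7 of 15 were higher and 2 lower in CD4 cells. Il1rl1, the IL-33 receptor, rose in both, by 5.99 ± 0.33 in CD8 and 4.91 ± 0.42 in CD4 cells. Of the type 17 genes, 3 of 11 were higher and 5 lower in CD8 cells, and 6 of 13 were higher and 6 lower in CD4 cells, while Rora rose in both. Bhlhe40, a factor that restrains IL-10, rose by 4.12 ± 0.24 in CD8 and 4.59 ± 0.21 in CD4 cells.

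CD8 and CD4 cells differed most in Eomes on both days, with Gata3 next at day 7 and close to Rora at day 0. At day 0, Eomes was 4.51 ± 0.42 higher in CD8 than in CD4 cells on the log2 scale (edgeR adjusted p = 6.26e-08), Gata3 was lower (-1.11 ± 0.30, adjusted p = 0.0205) and Rora was lower (-0.95 ± 0.17, adjusted p = 0.000344). Thus 3 of 4 members were called, where 8.59% of all genes were, 4.07% higher and 4.52% lower in CD8 cells. The Gata3 call at day 0 was lost without CD8 library 1 or 2 or CD4 library 3 (adjusted p = 0.0604 to 0.0951). In untreated day 7 cells, Eomes was 2.56 ± 0.38 higher in CD8 cells (adjusted p = 3.57e-05) and Gata3 was lower (-1.62 ± 0.31, adjusted p = 0.000536), so 2 of 4 were called, where 14.5% of all genes were, 7.78% higher and 6.67% lower in CD8 cells. The Rora difference at day 7 was -0.25 (95% interval -0.57 to 0.07). Tbx21 was 0.44 at day 0 (0.11 to 0.76) and 0.38 at day 7 (0.06 to 0.71), which did not pass after adjustment (adjusted p = 0.121 and 0.135). Of 14 tested type 2 genes, 11 were lower and 0 higher in CD8 than in CD4 cells at day 7, including Maf, a factor for IL-4 (-4.84 ± 0.32), and Ccr4, a type 2 chemokine receptor (-6.34 ± 0.73). Of 22 type 1 genes, 11 were higher and 0 lower, including Prf1, which encodes perforin (2.09 ± 0.23).

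With iNKT treatment, no member passed the test in either cell type. In CD8 cells, Tbx21 had 658, 789 and 886 CPM with iNKT17, 785, 785 and 839 CPM with iNKT2 and 665, 667 and 715 CPM with iNKT1, against 526, 520 and 568 CPM untreated. Every treated library was above every untreated one. Summed markers of interferon-responding T cells were 908 to 1050 CPM with iNKT17, 979 to 1140 CPM with iNKT2, 750 to 922 CPM with iNKT1 and 464 to 842 CPM untreated. Summed NK and innate lymphoid cell markers were 132 to 181, 153 to 295, 156 to 203 and 239 to 331 CPM in the same order of groups. Their part in the Tbx21 values was not tested. The log2 fold change was 0.53 (95% interval 0.21 to 0.84) with iNKT17, 0.58 (0.27 to 0.90) with iNKT2 and 0.35 (0.03 to 0.67) with iNKT1, with edgeR adjusted p-values of 0.157, 0.145 and 0.395. By DESeq2 the iNKT2 difference passed (adjusted p = 0.033). The 3 comparisons share the untreated libraries. Eomes in CD8 cells was at 57.7, 59.1 and 87.7 CPM with iNKT17, 56.3, 50.3 and 84.4 CPM with iNKT2 and 50.6, 57.7 and 76.4 CPM with iNKT1, against 34.7, 31.9 and 69.9 CPM untreated. All its groups overlapped the untreated one, although each treated library was above the untreated library with the same column number (9 of 9), and the 95% interval of the log2 difference was -0.04 to 1.2 with iNKT17. Gata3 in CD8 cells was at 58.2, 61.8 and 90.1 CPM with iNKT17, 62.3, 64.0 and 76.7 CPM with iNKT2 and 53.0, 53.9 and 70.1 CPM with iNKT1, against 51.2, 49.0 and 66.5 CPM untreated. The groups overlapped the untreated one, and each treated library was above the untreated library of the same number (9 of 9). For Tbx21 this held in 9 of 9 and for Rora in 1 of 9. The numbers are not known to pair the RNA libraries, and the 9 pairs reuse the same untreated libraries. The share over all genes is not given here. Rora in CD8 cells was at 96.7, 127 and 97.6 CPM with iNKT17, 120, 114 and 111 CPM with iNKT2 and 114, 113 and 112 CPM with iNKT1, against 126, 116 and 134 CPM untreated. The iNKT1 libraries lay below the untreated ones, by -0.14 on the log2 scale (95% interval -0.34 to 0.05), and the other groups overlapped them.

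In CD4 cells, Rora had 133, 129 and 82.2 CPM with iNKT17, 86.9, 110 and 99.6 CPM with iNKT2 and 137, 149 and 95.2 CPM with iNKT1, against 132, 156 and 162 CPM untreated. The iNKT2 group alone did not overlap the untreated group. Its log2 fold change was -0.59 (95% interval -1 to -0.19; edgeR adjusted p = 0.443). Gata3 in CD4 cells was at 235, 190 and 426 CPM with iNKT17, 250, 152 and 337 CPM with iNKT2 and 171, 165 and 295 CPM with iNKT1, against 154, 119 and 239 CPM untreated. Each group overlapped the untreated one, while library by library of the same number, treated was above untreated in 9 of 9. In CD4 cells this held in 7 of 9 for Tbx21, in 7 of 9 for Eomes and in 2 of 9 for Rora. These numbers are not known to pair the RNA libraries, and the treatments share the untreated ones. The largest Gata3 difference there was 0.75 with iNKT17 (95% interval 0.04 to 1.46; edgeR adjusted p = 0.665). Tbx21 in CD4 cells was at 443, 527 and 521 CPM with iNKT17, 627, 447 and 434 CPM with iNKT2 and 560, 462 and 429 CPM with iNKT1, against 370, 405 and 461 CPM untreated, and all groups overlapped. Eomes in CD4 cells was at 7.82, 8.96 and 7.69 CPM with iNKT17, 8.78, 5.91 and 8.62 CPM with iNKT2 and 7.80, 13.5 and 12.6 CPM with iNKT1, against 6.28, 5.73 and 11.1 CPM untreated, again overlapping. By edgeR, 0 members were called in each of the 6 comparisons. In CD8 cells, the share of all genes called was 0.206% with iNKT17 (0.137% higher, 0.0686% lower), 0.11% with iNKT2 (0.0891% and 0.0206%) and 0.158% with iNKT1 (0.0891% and 0.0686%). In the CD4 comparisons 0% of genes were called, where 1170, 1204 and 1008 genes had an unadjusted p under 0.05 and DESeq2 called 219, 119 and 123 genes. Among the members, DESeq2 called Tbx21 in CD8 cells with iNKT2 and nothing else. By edgeR, 0 genes of the 6 lists were called in any of these 6 comparisons.

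**Figure D4:**
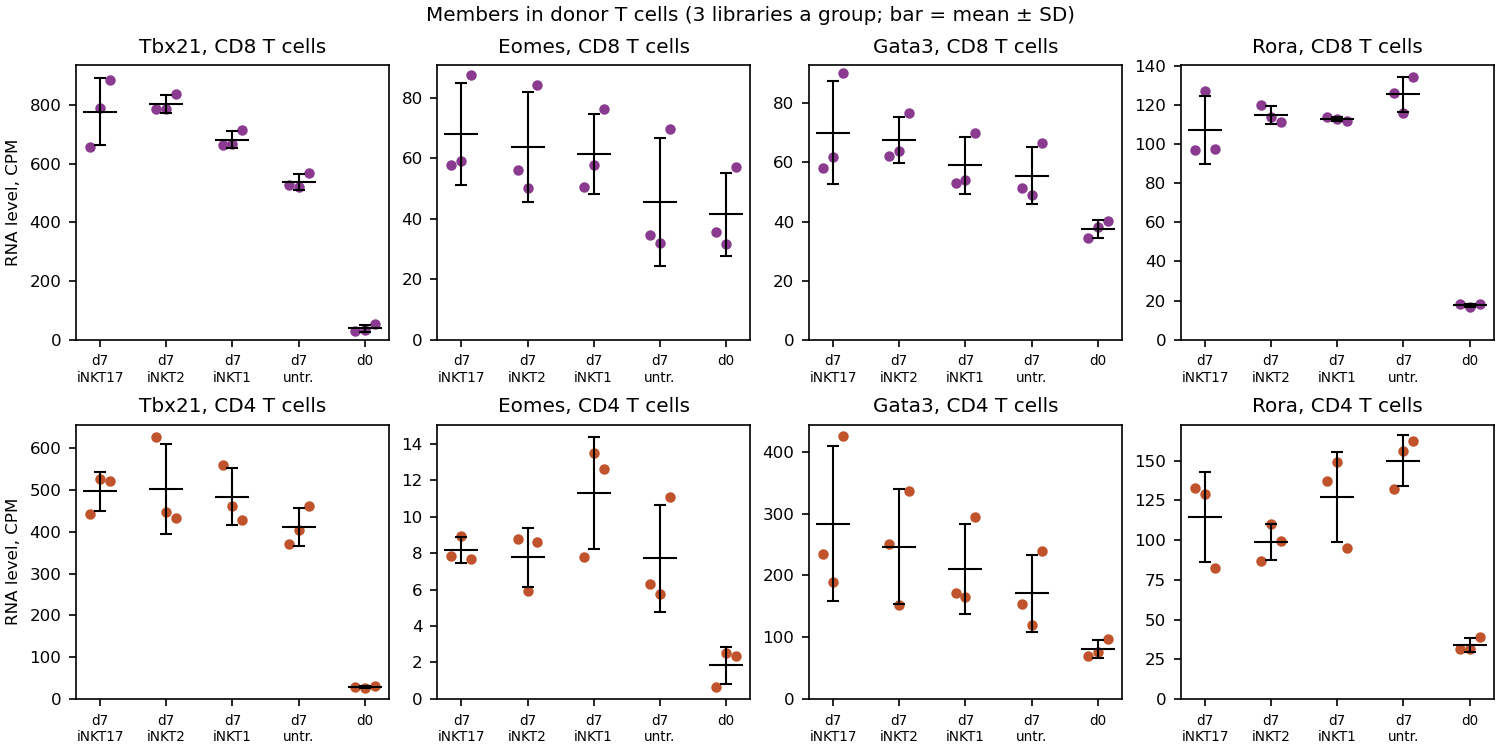
CPM of each member in donor CD8 (upper row) and CD4 (lower row) T cells at day 7 with iNKT17, iNKT2, iNKT1 or no treatment and at day 0; points are libraries, bars the mean ± SD of 3. Tbx21 and Rora stand far above day 0 in every day 7 group, and Eomes averages 45.5 CPM in untreated day 7 CD8 cells and 7.70 CPM in untreated day 7 CD4 cells.

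Gata3 varied along with the numbers the columns carry. In all 9 donor T cell groups with numbered columns, the library numbered 3 had the highest Gata3, against 6 of 9 groups for Tbx21, 5 for Eomes and 3 for Rora. The labels name 2 experiments, with 1 library of the second in each group, but the columns do not name the experiment, so whether number 3 is that experiment is not known here.

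Across the 30 donor T cell libraries and 7214 genes, the genes whose log2 CPM followed each member most closely were listed by Pearson correlation. For Tbx21 they were Ybx3 (0.990), Prc1 (0.987) and Epsti1 (0.986). For Rora they were Ccr2, a monocyte and effector T cell chemokine receptor (0.976), Pcbp4 (0.976) and Slc25a24 (0.973). These libraries fall into 6 from day 0 and the rest from day 7, which stand apart, so the coefficients are a description of both days together. For Gata3 they were Socs2, a cytokine signalling inhibitor (0.990), Nfkb1, an NF-κB subunit (0.974), and Gimap3 (0.956), and Socs2 averaged 10.3 CPM in CD8 and 71.3 CPM in CD4 libraries at day 7 (geometric means). For Eomes they were Cdt1, a DNA replication licensing factor (0.906), Tapbpl (0.902) and Cst7, a cystatin of cytotoxic cells (0.898), and Cst7 averaged 192 CPM in CD8 and 83.3 CPM in CD4 libraries at day 7.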

How the data were processed

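The deposited tables hold raw counts per gene (iNKT and donor T cell RNA) and per region (ATAC), and unique molecular identifier counts per single cell. Per the labels' protocols, iNKT RNA came from a stranded mRNA kit, donor T cell RNA from full-length cDNA with a transposase library kit, and single cells from a droplet 3′ kit. The submitters' processing notes name STAR 2.5.4, kallisto, Cell Ranger 2.1, Seurat 3, Bowtie2, MACS2, HOMER 4.9.1, bedtools 2.27.1 and DESeq2 1.22.2, with builds mm10 and GRCm38. Which tool made which table, and whether counting used strand, is not given in the sources used here. Overlapping long noncoding genes at Eomes, Gata3 and Rora could share reads with them.

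Gene IDs were matched to symbols through the deposited single-cell gene list, and through a general gene name list for IDs outside it. Together these matched 99.9% of IDs in the iNKT and 98.5% in the donor T cell table. Gene positions and promoters come from RefSeq on GRCm38.p6. Each table was fitted whole with edgeR 4.0.16 (R 4.3.3) by the robust quasi-likelihood test after filterByExpr and TMM scaling, with p-values adjusted by Benjamini-Hochberg over all features and called under 0.05. The SE is the log2 fold change divided by the root of the F statistic. The 95% intervals span 1.96 SE, a normal approximation that is narrower than the F test implies. iNKT RNA and ATAC were fitted over 3 sublineages, CD8 and CD4 cells over their 5 groups each, and CD8 against CD4 over all 10. Alternatives were DESeq2 1.42.0, its size factors in edgeR, no low-count filter, only the compared groups, a replicate block, leaving out each library, other windows around the genes and thinned cells. A planned term for the experiment was not fitted, because the columns do not name it. The iNKT1 libraries divided by CD4 were not analysed here.

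Library numbers come from the labels or column names, except for the CD8 day 0 libraries, whose 3 columns share a name and whose numbers only name them. Deviations from the group means correlated between same-numbered ATAC libraries, at 0.438 to 0.602. With 2 libraries a group, the deviations within a group mirror each other. The 6 same-numbered pairs thus hold each value 2 times, and different-numbered pairs hold it with a minus sign (-0.602 to -0.438). On these few values the same-numbered ATAC libraries were taken as paired. The block's values stand beside the regions named in the report whose call it changed and the counts it moved by over 1.5 times.

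Cells with at least 500 identifiers, 200 genes and at most 10% mitochondrial counts were kept and clustered without the members (1000 variable genes, 15 components, 15 neighbours, Leiden resolution 1). No doublet caller was run. The clusters were named from marker lists.

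Members and lists were chosen with earlier results of these data known, so list counts are descriptions. Named list genes are up to 3 per list and comparison with the smallest p, and named regions are, per gene, the one nearest the start site, the one with the highest mean and the called one with the smallest p in each comparison. The Rora regions at 652.2 kb and the 600 kb boundary were chosen after values were seen. The fits were tested on simulated counts.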

Additional observations from a re-analysis of the deposited data

Results flagged for a closer look

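The change of Eomes by day 7 differed between donor cell types. The CD8 change minus the CD4 change was -1.94 ± 0.53 on the log2 scale by the interaction term of the edgeR quasi-likelihood test (adjusted p = 0.0226). Eomes averaged 45.5 ± 21.2 CPM in untreated day 7 CD8 libraries and 41.5 ± 13.7 CPM at day 0, and 7.70 ± 2.95 CPM in untreated day 7 CD4 libraries and 1.85 ± 1.01 CPM at day 0 (SD, n = 3 each). Without CD8 day 0 library 3 the difference was -1.64 (adjusted p = 0.0692), and without CD4 untreated library 3 it was -1.59 (adjusted p = 0.0812).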

How the results depend on the processing

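Under the alternatives, 514 values of member log2 fold changes kept their direction and side of the threshold, 19 newly passed, 14 no longer passed and 17 changed sign. For the named regions these numbers were 285, 12, 20 and 7. The causes were not tested. In iNKT RNA, where edgeR called 0 members, DESeq2 called 2 in iNKT17 against iNKT1, 2 in iNKT2 against iNKT1, plus 1 between iNKT17 and iNKT2, as did edgeR with no low-count filter, and a fit of only the compared groups called 1 in iNKT17 against iNKT1. Leaving out single libraries gave 0 to 1 in each. DESeq2 called 1 member in CD8 cells with iNKT2 and 2 in the interaction, where leaving out single libraries gave 0 to 1. Between iNKT17 and iNKT2, the 8 regions called, where 8.34% of all regions were, became 13 by DESeq2 (12.4% of all), 18 with the replicate block (18.5%) and 2 to 6 with single libraries left out (2.88% to 9.14%). Where a group kept 1 library, it was assumed to vary like the others.

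Signs changed only for values that were not called. Eomes in CD4 cells with iNKT2 was -0.000495 with DESeq2 size factors. With single libraries left out, log2 fold changes ranged as follows. Gata3 was at -0.20 to 0.68 in iNKT17 and -0.57 to 0.30 in iNKT2 against iNKT1, and Rora at -0.39 to 0.03 in iNKT17 against iNKT2. In CD4 cells, Eomes was at -0.07 to 0.45 with iNKT17 and -0.16 to 0.36 with iNKT2, and Gata3 at -0.01 to 0.63 with iNKT1. In CD8 cells, Gata3 was at -0.05 to 0.25 with iNKT1 and Eomes at -0.33 to 0.42 by day 7. Tbx21 was at -0.19 to 0.23 in the interaction. The Gata3 start site region was at -0.43 to 0.08 in iNKT17 and -0.56 to 0.05 in iNKT2 against iNKT1, and at -0.22 to 0.40 between iNKT17 and iNKT2. The Gata3 region 1.12 kb upstream was at -0.07 to 0.35 between iNKT17 and iNKT2, and the downstream Eomes region at -0.02 to 0.28 in iNKT17 against iNKT1.

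Thinning lowered the share of cells with Gata3 to 12.6% in thymus A and 22.3% in thymus B, and with Rora to 4.44% and 6.47%, against 38.8%, 43.2%, 15.8% and 17.8% unthinned.

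Deviations of same-numbered RNA libraries correlated over 0.1 in 0 of 6 pairs in iNKT RNA, 14 of 30 in CD4 (median 0.0702) and 6 of 18 in CD8 cells (median 0.0795), against 11 of 60 (median -0.0317) and 7 of 36 (median -0.0384) for different numbers in CD4 and CD8 cells. In iNKT RNA, with 2 libraries a group, the 6 pairs hold each value 2 times. As not every pair was over 0.1, the numbers were not taken as pairs. With the replicate block, 0 members were called in each treatment comparison. No paired analysis was possible because the CD8 day 0 columns share 1 name, for CD8 cells at day 7 against day 0, CD8 against CD4 at day 0 and the interaction.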
